A study of Mus musculus with 48 samples.

Results

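Brown adipose tissue (BAT) of old female mice was compared between opposite late changes of diet. Mice labelled ALDR had been fully fed (AL) until 24 months of age and were then moved to dietary restriction (DR). Mice labelled DRAL had been restricted until 24 months and were then returned to full feeding. The members were every BAT library of these groups at the labelled age of 26 months, 5 ALDR and 3 DRAL libraries, which makes 8 of the 48 libraries of the series. All mice were females of the C3B6F1 strain, a hybrid of inbred strains, and the labels give no agent other than the diets.

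Restriction meant 60% of the food eaten by AL mice and was introduced in weekly steps of 10%. The restriction of the DRAL mice had begun at 12 weeks. Mice that stayed on AL or on DR to 26 months (3 BAT libraries each) served as a reference. So did mice killed at 5 months after AL or after a move from AL to DR in youth (3 each), and ALDR and DRAL mice at 26 months in white adipose tissue (WAT, 5 each) and liver (3 each). The old mice are labelled 26 months, although the protocol states 27 months at death. All mice were killed within the 3 hours before the restricted mice were due to be fed. The series title raises the question of whether the earlier diet is remembered. In the comparison of the switches the later diet (restricted in ALDR, full in DRAL) and the earlier diet (full in ALDR, restricted in DRAL) are opposed, and a positive log2 fold change is a higher level in ALDR. The labels call the libraries biological replicates but tie no number to a cage, litter or day.

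Brown fat burns fatty acids and glucose to make heat through the uncoupling protein UCP1, under adrenergic nerves and thyroid hormone. It takes up fatty acids from the blood through lipoprotein lipase and fatty acid transport proteins, stores them in many small droplets, makes new fatty acids when fed, and oxidises them in mitochondria and peroxisomes. Less food lowers insulin, raises glucocorticoid hormone and shifts the time of feeding, to which the clock genes of peripheral tissues respond.

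The libraries carried brown fat markers, with 32206 to 79349 counts of Ucp1 in each of the 8. The summed level of 12 brown fat defining markers was 9053 to 12240 counts per 1000000 (CPM) in ALDR and 7740 to 10210 CPM in DRAL. The extraction protocol names an epididymal depot although the mice were female, so the depot is not settled by the labels. Library totals were 14924429 to 19349912 counts in ALDR and 12042148 to 15646720 in DRAL. At this depth 3 counts were 0.155 to 0.249 CPM, a floor that covers counting error only. Several libraries stood apart. Skeletal muscle markers summed to 606 to 8184 CPM in ALDR and 67.9 to 784 CPM in DRAL, with the highest in ALDR replicate 3. Epithelium markers summed to 8.02 to 450.5 CPM in ALDR, highest in replicate 5, and 1.86 to 52.9 CPM in DRAL. Lymphocyte markers summed to 13.7 to 63.5 CPM in ALDR and 8.36 to 313 CPM in DRAL, highest in DRAL replicate 1. The muscle markers Ckm and Acta1 had reads in each of the 8 libraries, and the keratin Krt14 and the epithelial protein Wfdc2 were at 0 in at least 1 DRAL library. In bulk tissue, fewer cells of a type and less RNA per cell cannot be told apart.

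Between the opposite switches, 279 of 13845 genes tested differed at an adjusted p under 0.05 (edgeR quasi-likelihood test, Benjamini-Hochberg adjustment; such genes are termed called), which is 2.02% of the genes. Of these, 161 were higher in ALDR (1.16%) and 118 lower (0.852%). The changes were of moderate size, with a median log2 fold change of 0.64 for the genes that were higher and -0.69 for those that were lower. A total of 71 of the 279 passed a fold change of 2 in either direction. The 5 ALDR and 3 DRAL libraries did not overlap for 262 of the 279 genes, and for 1132 genes (8.18%) of all those tested. Of the gene lists examined, fatty acid oxidation, lipid uptake, glucocorticoid targets and the clock each had 4 or more members that were higher in ALDR. The lists were chosen with earlier results of these data known. The genes that were lower included Igf1, the thyrotropin receptor gene Tshr, the heme synthesis enzyme gene Alas1 and the clock repressor gene Nr1d1.

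The number of calls changed with single libraries. It was 35 without DRAL replicate 1, 42 without DRAL replicate 2, 138 without ALDR replicate 2, 108 without ALDR replicate 4 and 737 without ALDR replicate 1, and 6 when the 8 libraries were fitted alone. All 279 genes kept their direction in every one of these fits. That is a description and no independent support, since the genes were called on these same libraries. Of the 60 named genes called between the switches, Slc4a4, Alas1, BC034090, Cdh9 and Gramd4 were called under every alternative. Ehhadh, Slc27a1, Slc27a2, Acot1, Acot4, Tshr, Map7d2 and Htra1 were among 9 lost only in the fit of the 8 libraries alone, where the adjusted p of these 9 lay between 0.065 and 0.154.

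**Figure D1:**
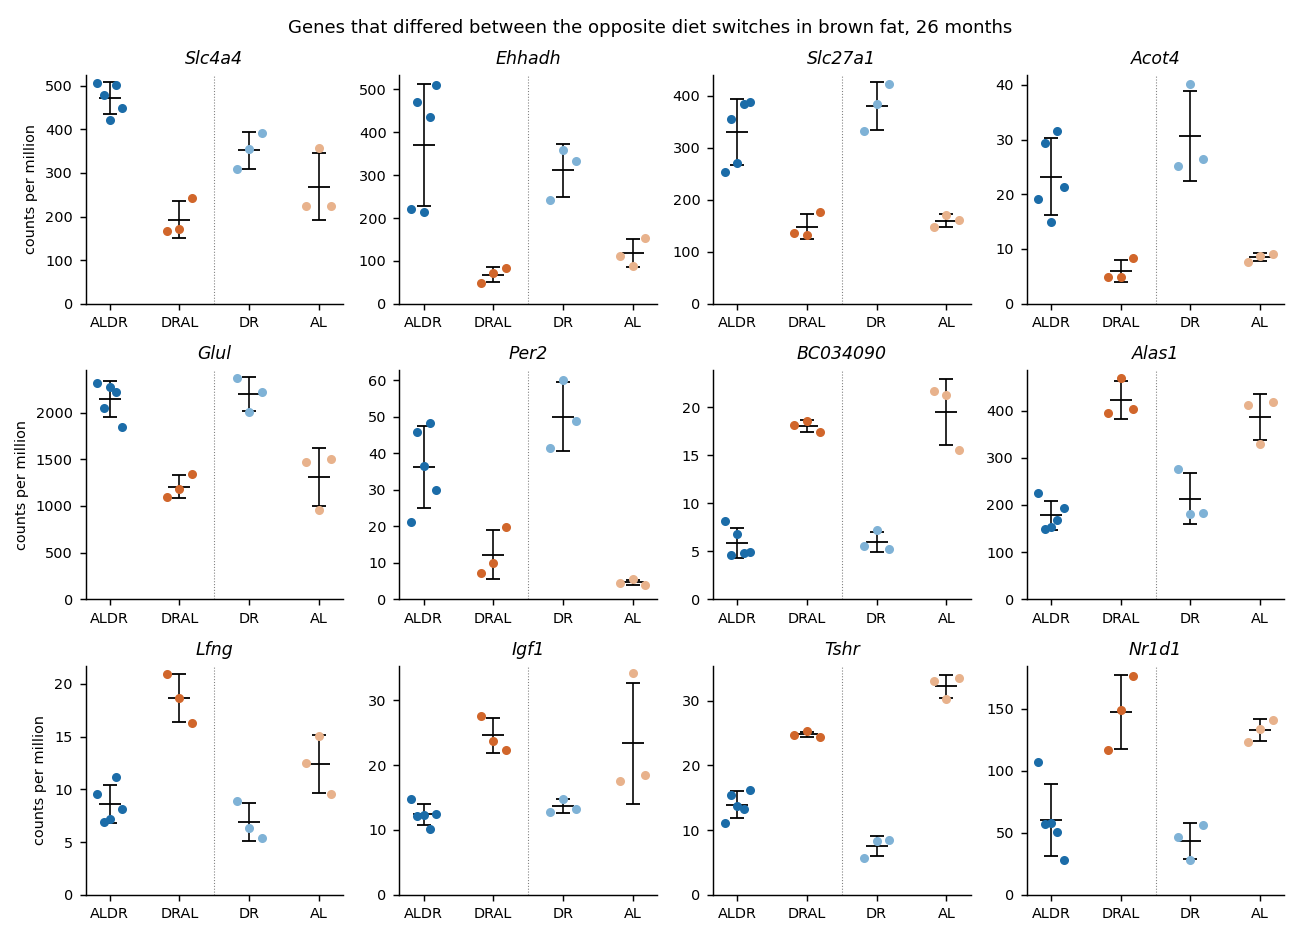
Levels of 12 genes in CPM (vertical axes, from 0) in each BAT library at 26 months, for the switched groups ALDR (5 libraries) and DRAL (3) and the unswitched groups DR (3) and AL (3); points are libraries, horizontal bars means and whiskers 1 SD. For Ehhadh the ALDR libraries lie at 214 to 509 CPM and the DRAL libraries at 47.9 to 84.3 CPM, and for Alas1 at 149.6 to 225 CPM and 396 to 470 CPM.

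Genes of fatty acid oxidation included several that rose. Of 25 genes of fatty acid oxidation and ketone metabolism tested, 6 were higher in ALDR and none lower. The list's median log2 fold change was 0.14 beside 0.01 over all genes. Without DRAL replicate 1 these medians were 0.04 and 0.02, and without DRAL replicate 3 they were 0.22 and 0.01. Ehhadh (chr16:21761287-21787807), the bifunctional enzyme of the peroxisomal oxidation cycle, was at 220.4, 469.9, 214, 436 and 509 CPM in ALDR replicates 1 to 5 and at 47.9, 71.99 and 84.3 CPM in DRAL replicates 1 to 3. The lowest ALDR library was thus well above the highest DRAL library, and the fitted difference was 5.43-fold (log2 fold change 2.44, SE 0.31, adjusted p = 0.00125).

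The acyl-CoA thioesterases, which free fatty acids from coenzyme A, held the largest fold of this list. Acot1 (chr12:84009490-84018371) stood at 20.5, 65.5, 31.7, 45.4 and 197 CPM in ALDR and 2.53, 3.08 and 6.54 CPM in DRAL (log2 fold change 4.13, SE 0.65, adjusted p = 0.00468), with ALDR replicate 5 far above the other ALDR libraries. Without that library its log2 fold change was 3.31 (SE 0.39, adjusted p = 0.000873). Its neighbour Acot4 (chr12:84038379-84048601) was at 19.1, 29.4, 14.9, 31.6 and 21.3 CPM in ALDR and 4.81, 4.87 and 8.36 CPM in DRAL (log2 fold change 1.94, SE 0.29, adjusted p = 0.0036). Acot3, chosen after its values were seen, had no read in 2 of the 3 DRAL libraries and 1.05 to 5.08 CPM in ALDR, and its call was lost without DRAL replicate 1 or DRAL replicate 2. Every ALDR library exceeded every DRAL library for each of these genes. Acot1 to Acot4 are closely similar genes of 1 cluster on chromosome 12. How reads common to them were counted is not given in the sources used here, so the split between them is uncertain. Acot2 reached a log2 fold change of 0.81 with overlapping libraries (adjusted p = 0.0882).

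Mitochondrial entry and fuel choice moved less. Pdk4, the kinase that shuts pyruvate out of the mitochondrion, was at 2568, 3776, 2970, 3577 and 2867 CPM in ALDR and 1314, 1791 and 1962 CPM in DRAL, 1.87-fold higher without overlap (log2 fold change 0.90, SE 0.19, adjusted p = 0.0244). Cpt1a, the liver-type carnitine palmitoyltransferase of fatty acid entry, rose 1.64-fold (adjusted p = 0.0437) with ALDR replicates 1 and 3 just under the highest DRAL library. Cpt1b, the form typical of brown fat and muscle, had 1028 ± 85.9 (SD, n = 5) CPM in ALDR and 999.6 ± 148 (SD, n = 3) CPM in DRAL (log2 fold change 0.04, adjusted p = 0.867). With 1 of the 8 libraries left out, 2 to 7 of the 25 genes passed. There were 2 (Acot1 and Ehhadh) without DRAL replicate 1, DRAL replicate 2, ALDR replicate 2 or ALDR replicate 4, 3 without ALDR replicate 5, and 4 without ALDR replicate 3.

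Fatty acid uptake and droplet genes came next. In the list of lipid uptake, storage and lipolysis, 5 of 24 genes were higher in ALDR and 1 was lower, with a median log2 fold change of 0.14. The median was 0.07 without DRAL replicate 1 or ALDR replicate 4, and 0.24 without DRAL replicate 3. Slc27a1 (chr8:71568882-71587302), which encodes the fatty acid transport protein FATP1, was at 254, 355, 270.3, 384 and 387 CPM in ALDR and 137, 131 and 176 CPM in DRAL, a 2.23-fold rise with a wide gap between the groups (log2 fold change 1.16, SE 0.15, adjusted p = 0.00144). Slc27a2, a transport protein and very long chain acyl-CoA synthetase listed among the heat production genes, was at 127, 193, 122, 209.6 and 213 CPM in ALDR and 51.9, 72.7 and 85.9 CPM in DRAL (log2 fold change 1.30, SE 0.20, adjusted p = 0.0036). The carnitine transporter gene Slc22a5, chosen after its values were seen, was 1.60-fold higher (85.5 to 111 against 48.8 to 71.0 CPM, adjusted p = 0.00374).

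The remaining members that passed were smaller in fold. Acsl1, which activates fatty acids with coenzyme A, went from 1934 ± 448 (SD, n = 3) CPM in DRAL to 3008 ± 225 (SD, n = 5) CPM in ALDR (adjusted p = 0.0232). Abhd5, the activator of the triglyceride lipase ATGL, was at 109, 117, 115, 124 and 126 CPM in ALDR and 70.4, 83.6 and 88.7 CPM in DRAL (log2 fold change 0.55, SE 0.10, adjusted p = 0.0103). Cidec, a protein of the lipid droplet surface, rose 1.46-fold (adjusted p = 0.0215). Lpl, the lipoprotein lipase of the capillary wall, rose 1.34-fold (adjusted p = 0.0422). Angptl8, an insulin-induced inhibitor of that lipase, fell by 0.87 on the log2 scale, at 40.3, 23.9, 26.98, 28.2 and 21.9 CPM in ALDR and 44.03, 52.1 and 58.5 CPM in DRAL (adjusted p = 0.0437), and of the fits with 1 library left out it was called only in that without ALDR replicate 1. Slc27a1 was the 1 member called without DRAL replicate 1 or DRAL replicate 2, and 2 and 3 members were called without ALDR replicate 4 and ALDR replicate 2. The calls outside the lists, chosen after their values were seen, held further genes of lipid metabolism. They were the glycerol phosphate acyltransferase gene Gpat4 (log2 fold change 0.73, adjusted p = 0.0103), the droplet formation gene Fitm2 (0.51, adjusted p = 0.0103), the sphingosine phosphate lyase gene Sgpl1 (0.79, adjusted p = 0.0103), and Acss3, for a mitochondrial short-chain acyl-CoA synthetase (0.92, adjusted p = 0.00468). Of these genes, Acss3 and Slc22a5 were called with any 1 library left out. Gpat4, Fitm2 and Sgpl1 were lost without DRAL replicate 1, and Fitm2 and Sgpl1 also without DRAL replicate 2.

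**Figure D2:**
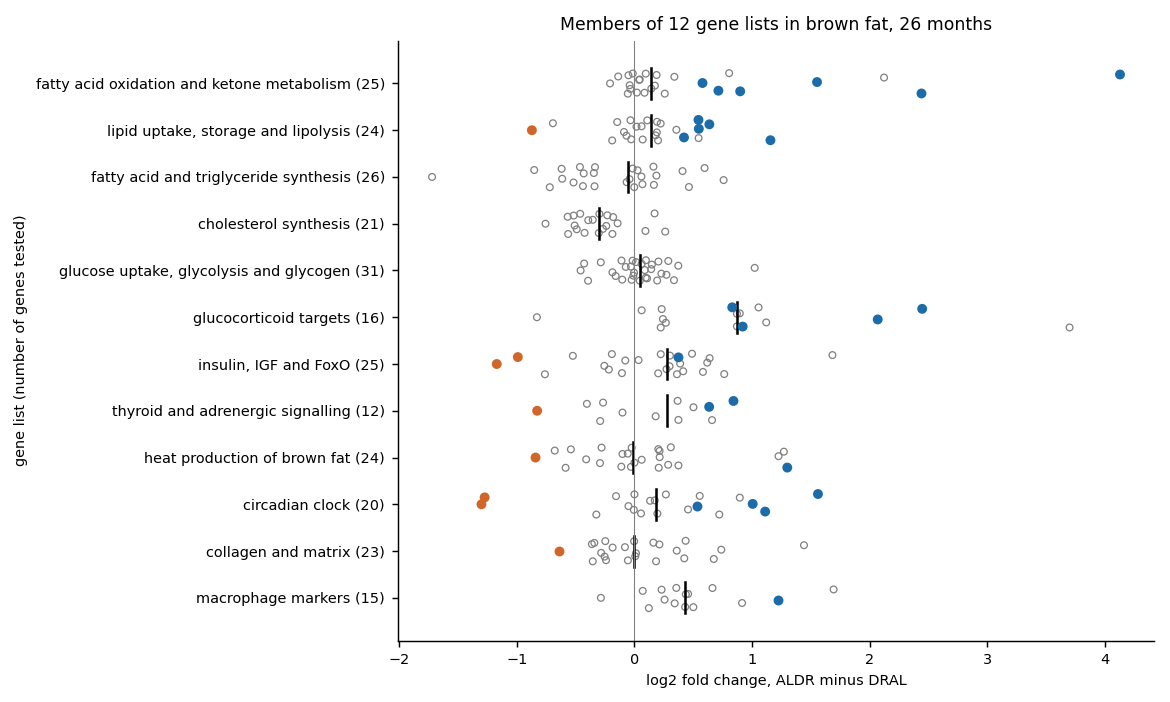
Log2 fold change of ALDR over DRAL (horizontal axis) for each tested member of 12 gene lists (vertical axis, number tested in brackets); filled points passed an adjusted p of 0.05 (blue higher and orange lower in ALDR), open points did not, and black bars are list medians. Calls on the right were 6 of 25 in fatty acid oxidation, 5 of 24 in lipid uptake, 4 of 16 in glucocorticoid targets and 4 of 20 in the clock. Without DRAL replicate 1 these counts were 2, 1, 0 and 1. Over all genes tested, 1.16% were called higher. No gene of fatty acid synthesis or cholesterol synthesis passed. The lists were chosen with earlier results of these data known.

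New synthesis of lipid gave no edgeR call with all 8 libraries, and the count changed most without ALDR replicate 1. None of 26 genes of fatty acid and triglyceride synthesis and none of 21 of cholesterol synthesis passed in edgeR, with median log2 fold changes of -0.05 and -0.30. At an unadjusted p under 0.05 they had 8 and 6 genes, beside 2414 of all 13845 genes tested. DESeq2 called 2 and 0, beside 577 over all genes. Without ALDR replicate 1, 9 of the 26 and 9 of the 21 were lower in ALDR and none higher, with medians of -0.25 and -0.63. Without DRAL replicate 3, the glycerol phosphate acyltransferase gene Gpam was higher in ALDR, the 1 call in either list with any other library left out, and the median of fatty acid synthesis was 0.01. In ALDR replicate 1 the median cholesterol synthesis gene stood 0.265 above the mean of the DRAL libraries on the log2 scale, against -0.561 to -0.644 in the other ALDR libraries. For fatty acid synthesis the same values were 0.291 in that library and -0.189 to -0.789 in the rest.

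Scd2, Srebf1 and Lss, chosen after their values were seen, showed that split. Scd2, a stearoyl-CoA desaturase, was at 498, 47.97, 61.04, 45.6 and 52.4 CPM in ALDR replicates 1 to 5 and 473, 398 and 519.6 CPM in DRAL, so that ALDR replicate 1 lay among the DRAL libraries and the other 4 far below. Its log2 fold change was -1.72 (adjusted p = 0.194) with all libraries and -3.17 (adjusted p = 0.000198) without that library. Srebf1, the transcription factor that drives lipogenic genes, was at 566, 236, 284, 267 and 237 CPM and 471, 464 and 525 CPM (adjusted p = 0.156, and 0.000198 without ALDR replicate 1). Lss, the lanosterol synthase of the sterol pathway, was at 67.8, 35.7, 36.9, 37.97 and 31.02 CPM and 60.99, 57.4 and 59.9 CPM (adjusted p = 0.25, and 0.0213 without ALDR replicate 1).

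Other enzymes of the fatty acid pathway did not pass. Acly, which makes cytosolic acetyl-CoA, was at 5630, 1623, 1767, 1881 and 969 CPM in ALDR and 3439, 3526 and 3229 CPM in DRAL (log2 fold change -0.52, SE 0.46, adjusted p = 0.573). It did not pass without ALDR replicate 1 either (log2 fold change -1.13, adjusted p = 0.0767). Fasn, the fatty acid synthase, was at 24460 ± 7430 (SD, n = 5) CPM in ALDR and 25610 ± 3351 (SD, n = 3) CPM in DRAL (adjusted p = 0.933). Acaca (-0.01, adjusted p = 0.987) and Elovl6 (0.16, adjusted p = 0.787) did not pass. Glucose uptake, glycolysis and glycogen genes gave no call among 31 in edgeR (median log2 fold change 0.05, and -0.05 to 0.11 with 1 library left out). They had 2 genes at an unadjusted p under 0.05 (2414 of 13845 over all genes) and 1 call in DESeq2 (577 over all genes). Slc2a4, the insulin-responsive glucose transporter gene, was lower in ALDR without ALDR replicate 1 (log2 fold change -0.62, adjusted p = 0.0311).

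ALDR replicate 1 also lay nearest to DRAL for 158 of the 279 called genes, and DRAL replicate 3 nearest to ALDR for 151. For Fkbp5, Zbtb16 and Cry1 the ALDR replicate 1 value fell inside or below the DRAL range, while for Slc4a4 and Ehhadh it stayed apart from DRAL. What set this library apart was not tested.

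**Figure D3:**
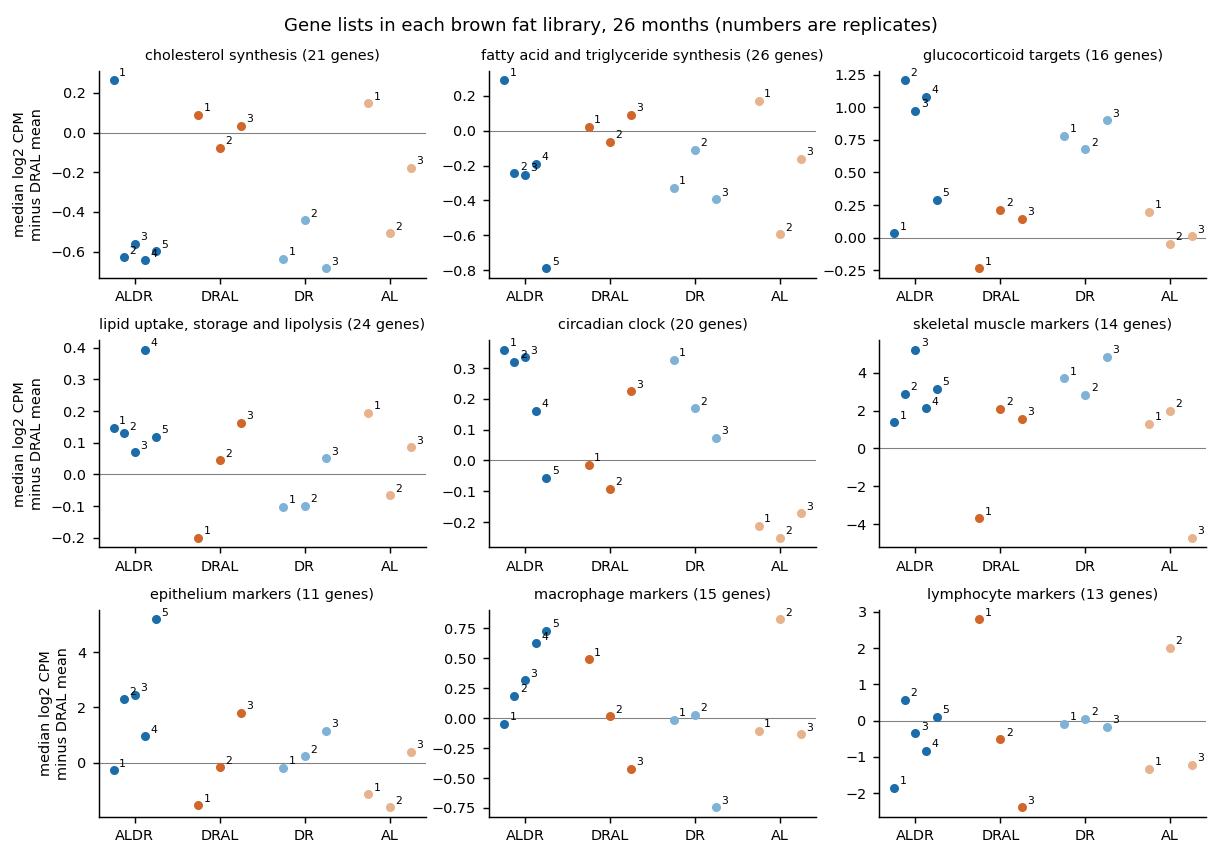
Median over the members of 9 gene lists of the log2 CPM minus the mean of the 3 DRAL libraries (vertical axes, log2 units), for each BAT library at 26 months; small numbers give the replicate. For cholesterol synthesis ALDR replicate 1 sits at 0.265 while the other ALDR libraries sit between -0.561 and -0.644; the epithelium panel shows ALDR replicate 5 at 5.19.

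Heat production genes went both ways. Of 24 tested, Slc27a2 rose and Prdm16 fell, 5 had no overlap between the groups, and log2 fold changes ran from -0.84 to 1.30 with a median of -0.01 (-0.07 to 0.09 with 1 library left out). Ucp1 was at 5950, 2775, 2810, 3375 and 3757 CPM in ALDR and 2717, 3548 and 4462 CPM in DRAL, with overlapping ranges (log2 fold change 0.06, SE 0.29, adjusted p = 0.934). Prdm16, a coregulator that specifies brown fat cells, was at 28.6, 20.7, 23.8, 19.5 and 19.3 CPM in ALDR and 36.02, 33.95 and 50.03 CPM in DRAL, every ALDR value being lower (log2 fold change -0.84, SE 0.19, adjusted p = 0.0335). The call held without ALDR replicate 1 and was lost without any other single library. Dio2, the deiodinase that activates thyroid hormone in brown fat (log2 fold change 0.37, adjusted p = 0.709), and Ppargc1a, the coactivator of mitochondrial biogenesis (0.00, adjusted p = 0.999), did not pass.

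Receptors upstream of heat production did move. Among 12 genes of thyroid and adrenergic signalling, 2 were higher and 1 lower in ALDR, with a median of 0.27 (0.17 without DRAL replicate 1 and 0.18 without ALDR replicate 3). Tshr, the thyrotropin receptor, was at 11.02, 15.5, 13.7, 13.3 and 16.2 CPM in ALDR and 24.6, 25.3 and 24.4 CPM in DRAL, 1.77-fold lower in ALDR (log2 fold change -0.83, SE 0.12, adjusted p = 0.0027). Adra1a, the alpha-1A adrenergic receptor, was at 73.3, 141, 114, 145 and 126 CPM and 59.05, 72.4 and 68.98 CPM, 1.79-fold higher in ALDR (log2 fold change 0.84, SE 0.17, adjusted p = 0.0152). Pde3b, the insulin-activated phosphodiesterase that lowers cyclic AMP in fat cells, rose 1.55-fold (340.4 to 474 against 229 to 293 CPM, adjusted p = 0.0144). Without DRAL replicate 1 or without DRAL replicate 2, Tshr remained called and the other members did not pass.

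Hormone response genes were the next group. Of 16 glucocorticoid targets, 4 were higher in ALDR and none lower, and the median log2 fold change was 0.87. Glul, which encodes glutamine synthetase, was at 2321, 2048, 2279, 2221 and 1850 CPM in ALDR and 1095, 1178 and 1340 CPM in DRAL, with no overlap (log2 fold change 0.83, SE 0.14, adjusted p = 0.00821). Zbtb16, a transcriptional repressor induced by glucocorticoid, was at 9.97, 68.4, 56.4, 97.5 and 79.5 CPM in ALDR and 10.3, 11.5 and 12.5 CPM in DRAL, so that ALDR replicate 1 lay at the DRAL level and the other 4 far above it (log2 fold change 2.45, SE 0.53, adjusted p = 0.0267). Fkbp5, the co-chaperone that dampens the glucocorticoid receptor, had the same shape, 4.12, 14.1, 20.6, 30.3 and 29.2 CPM in ALDR and 4.98, 4.51 and 4.58 CPM in DRAL (log2 fold change 2.07, SE 0.50, adjusted p = 0.042). Tsc22d3, another direct target, rose 1.89-fold (adjusted p = 0.0305). Hsd11b1, which regenerates active glucocorticoid inside cells, was at 232, 507, 394, 409 and 268 CPM and 175, 180 and 145 CPM (adjusted p = 0.0545). The number of the 16 that passed was 7 without ALDR replicate 1, 1 without ALDR replicate 2, ALDR replicate 4 or DRAL replicate 3, 2 without ALDR replicate 3, and none in edgeR without DRAL replicate 1 or DRAL replicate 2, where 8 and 11 had an unadjusted p under 0.05. With all libraries, 2414 of the 13845 genes tested had an unadjusted p under 0.05.

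In the list of insulin, IGF and FoxO signalling, 1 of 25 genes was higher and 2 were lower. Igf1, the growth factor that fat also secretes, was at 14.7, 12.2, 12.3, 10.1 and 12.5 CPM in ALDR and 27.6, 23.8 and 22.4 CPM in DRAL, 1.99-fold lower in ALDR (log2 fold change -0.99, SE 0.17, adjusted p = 0.00821). The call was lost without DRAL replicate 1. Grb14, an adaptor that inhibits the insulin receptor, was at 62.6, 29.7, 32.7, 36.5 and 17.9 CPM and 92.9, 65.8 and 83.0 CPM (log2 fold change -1.17, SE 0.27, adjusted p = 0.0308). The receptor gene Insr rose 1.30-fold with overlapping libraries (adjusted p = 0.0418). Both calls were lost without DRAL replicate 1 or 2 or without ALDR replicate 2, 3 or 4, and Grb14 also without DRAL replicate 3. Without ALDR replicate 1, 7 were higher and 2 lower: Irs2, Igf1r, Igfbp3, Foxo1, Ccng2 and Klf15 joined the list. Irs2 over all libraries was at 17.5, 41.8, 121, 28.02 and 27.9 CPM in ALDR and 11.1, 17.4 and 15.5 CPM in DRAL (adjusted p = 0.11). It was highest in ALDR replicate 3, the library with the most muscle marker RNA, and its log2 fold change of 1.68 became 0.97 without it. Among 18 adipokines and secreted factors Igf1 and Angptl8 were the calls. There were 4 without ALDR replicate 1 (Lep and Retn with these) and 3 without ALDR replicate 5 (Lep, Nrg4 and Igf1). Lep, the leptin gene, was at 108, 23.9, 48.2, 22.7 and 8.29 CPM in ALDR and 176, 103 and 168 CPM in DRAL (log2 fold change -1.83, adjusted p = 0.0607, and -2.54, adjusted p = 0.00115 without ALDR replicate 1). Adipoq did not pass (0.17, adjusted p = 0.42).

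Clock genes moved in both directions. The clock is a loop in which BMAL1 (Arntl) and CLOCK drive the repressors of the Per and Cry families, and another loop of REV-ERB repressors (Nr1d1) and ROR activators (Rora) sets Arntl. Of 20 clock genes, 4 were higher in ALDR (Per2, Cry1 and Rora among them) and 2 lower (Nr1d1 and Bhlhe40). RefSeq promoter windows (GRCm38.p6) were held for Cry1, Nr1d1 and Rora of these. They are shown 5′ to 3′ on the gene's strand, 250 bases up to the RefSeq start, because they bring together a repressor gene, a REV-ERB gene and an ROR gene that moved in different directions; capitals mark an E-box (CACGTG), a D-box (TTATGTAA or TTACGTAA) or a forkhead motif (GTAAACA) on either strand.
Cry1, chr10:85185055-85185304, minus strand: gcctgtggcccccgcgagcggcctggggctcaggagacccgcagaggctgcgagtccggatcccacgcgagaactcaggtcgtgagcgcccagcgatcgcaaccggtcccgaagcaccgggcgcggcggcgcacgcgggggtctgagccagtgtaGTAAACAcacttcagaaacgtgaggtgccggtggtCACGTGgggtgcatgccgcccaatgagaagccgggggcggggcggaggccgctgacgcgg
Nr1d1, chr11:98775378-98775627, minus strand: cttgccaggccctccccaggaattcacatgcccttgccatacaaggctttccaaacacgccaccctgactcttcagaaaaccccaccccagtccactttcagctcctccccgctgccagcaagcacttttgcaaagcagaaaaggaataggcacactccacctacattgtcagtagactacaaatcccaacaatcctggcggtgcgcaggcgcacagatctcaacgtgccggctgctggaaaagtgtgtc
Rora, chr9:68653536-68653785, plus strand: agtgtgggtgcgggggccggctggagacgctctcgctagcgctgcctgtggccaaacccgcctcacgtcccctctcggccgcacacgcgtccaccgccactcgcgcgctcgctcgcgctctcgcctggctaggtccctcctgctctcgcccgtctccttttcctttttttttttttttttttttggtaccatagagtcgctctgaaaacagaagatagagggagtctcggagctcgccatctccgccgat
The Cry1 window held 1 E-box, starting 60 bases before the start, and 1 forkhead motif, starting 95 bases before it, and no match of the 3 motifs lay in the other windows. Over all 32851 windows of 300 bases, 7.15% held the E-box, 1.06% a D-box and 3.65% the forkhead motif, and over the 13661 windows of genes tested in BAT, 9.5%, 0.739% and 2.61%. A match is a match of letters only, and its absence says nothing of the factor.

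Among the clock genes that rose, Per2 was at 21.1, 45.9, 36.5, 48.1 and 29.9 CPM in ALDR and 7.17, 9.88 and 19.7 CPM in DRAL, 2.95-fold higher without overlap (log2 fold change 1.56, SE 0.31, adjusted p = 0.0157). Cry1, the gene with both motifs, was at 15.2, 27.4, 23.4, 29.6 and 36.2 CPM and 15.7, 10.96 and 10.1 CPM, with ALDR replicate 1 under DRAL replicate 1 (log2 fold change 1.11, SE 0.27, adjusted p = 0.0405). Rora, which activates Arntl, rose 1.45-fold (adjusted p = 0.0153).

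The REV-ERB gene went the other way. Nr1d1 (chr11:98767932-98775333) was at 107, 57.4, 57.7, 50.4 and 27.7 CPM in ALDR and 117, 149.5 and 176 CPM in DRAL, 2.46-fold lower in ALDR (log2 fold change -1.30, SE 0.29, adjusted p = 0.0271). The highest ALDR library, replicate 1, came close to the lowest DRAL library. Bhlhe40, a repressor that competes for E-boxes, was at 92.8, 32.9, 87.2, 44.3 and 43.2 CPM and 107, 160.2 and 167 CPM (log2 fold change -1.27, SE 0.30, adjusted p = 0.0385). Arntl (0.13, adjusted p = 0.864) and Dbp (-0.16, adjusted p = 0.907, and -1.01 to 0.17 over the alternative fits), an output gene of the clock, did not pass. Neither did Nr1d2, the paralog of Nr1d1 (adjusted p = 0.996). With 1 library left out, the calls of this list ran from 1 (without DRAL replicate 1 or DRAL replicate 2) through 2 (without DRAL replicate 3) and 3 (without ALDR replicate 2 or ALDR replicate 4) to 7 (without ALDR replicate 1).

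Several leading genes lay outside the lists. Slc4a4 (chr5:88886818-89239653), a sodium bicarbonate cotransporter, was at 507, 479, 422, 503 and 448 CPM in ALDR and 166, 170.3 and 242 CPM in DRAL, 2.45-fold higher, with every ALDR library far above DRAL (log2 fold change 1.29, SE 0.16, adjusted p = 0.00125). Alas1 (chr9:106233455-106248654), the first and rate-limiting enzyme of heme synthesis, was at 225, 149.6, 153, 168 and 194 CPM and 396, 470 and 404 CPM, 2.38-fold lower in ALDR (log2 fold change -1.25, SE 0.16, adjusted p = 0.00125). BC034090 (chr1:155212471-155244444), a gene without an established role, was at 8.10, 4.60, 6.78, 4.78 and 4.88 CPM and 18.1, 18.6 and 17.4 CPM (log2 fold change -1.63, SE 0.18, adjusted p = 0.000312). Gramd4, chosen after its values were seen, was at 21.5, 18.4, 19.2, 21.7 and 21.1 CPM in ALDR and 35.8, 33.5 and 36.5 CPM in DRAL, with no overlap (log2 fold change -0.79, SE 0.08, adjusted p = 0.000312).

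Others that the naming rule picked among genes lower in ALDR were smaller in level. Lfng, a glycosyltransferase that modifies Notch, was at 9.52, 6.91, 7.16, 11.2 and 8.09 CPM and 20.9, 18.7 and 16.3 CPM (log2 fold change -1.12, SE 0.18, adjusted p = 0.00473). Dusp8, a phosphatase of MAP kinases, was at 5.70, 8.95, 9.81, 5.46 and 9.51 CPM and 19.7, 16.4 and 28.1 CPM (log2 fold change -1.44, SE 0.30, adjusted p = 0.02). Nepn, Ripor3, Hspa12a, Prrt4 and Cdsn had log2 fold changes of -1.15, -1.61, -1.11, -2.27 and -1.30, with adjusted p between 0.00821 and 0.0252. Adam12, a membrane metalloproteinase, was the other gene picked among those higher, at 62.1, 90.5, 90.7, 106 and 75.5 CPM and 38.8, 36.6 and 50.2 CPM (log2 fold change 1.02, SE 0.17, adjusted p = 0.00745). Lfng stayed called with any 1 library left out, whereas Adam12, Ripor3, Hspa12a, Prrt4, Dusp8 and Cdsn were lost without DRAL replicate 1 or DRAL replicate 2, and Nepn without DRAL replicate 1. Dusp8, Hspa12a, Prrt4 and Cdsn were also lost without ALDR replicate 4, Dusp8 and Hspa12a without DRAL replicate 3, and Prrt4 without ALDR replicate 2. Without ALDR replicate 1, Prrt4 had a log2 fold change of -2.86. Of the 20 genes the rule picked, 18 had a RefSeq promoter window, and an E-box stood in a window of 3 of them (Slc27a1, Acot4 and Lfng), a forkhead motif in that of Nepn. Of the 10681 genes tested in BAT that had a window, 11.4% held an E-box in one and 3.13% a forkhead motif.

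Marker lists of other cell types gave few calls. The 14 muscle markers all had positive log2 fold changes (median 2.32, and 1.25 without ALDR replicate 3). The 13 lymphocyte markers had negative ones (median -1.77), and this direction rested on DRAL replicate 1, without which their median was 1.23. In edgeR with all 8 libraries none of them was called, nor any of 5 red blood cell, 10 endothelium and 8 white fat markers. At an unadjusted p under 0.05 these 5 lists had 1, 3, 0, 3 and 5 genes, beside 2414 of all 13845 genes tested. DESeq2 called 1 white fat marker and none of the others. With 1 library left out, the white fat markers called were Lep, lower in ALDR without ALDR replicate 1 or ALDR replicate 5 (adjusted p = 0.00115 and 0.0489), and Retn, the resistin gene, higher without ALDR replicate 1 (log2 fold change 0.89, adjusted p = 0.0455). The 11 epithelium markers all had positive log2 fold changes (median 2.58, and 0.74 without ALDR replicate 5). Of these Wfdc2 passed, at 1 to 36 counts in ALDR and with no read in DRAL. Of 15 macrophage markers, Cd163, a scavenger receptor of resident macrophages that glucocorticoid induces, was at 9.22, 18.6, 18.1, 13.5 and 13.9 CPM and 5.82, 8.02 and 5.06 CPM (log2 fold change 1.22, SE 0.28, adjusted p = 0.0337). Of 23 collagen and matrix genes, Col15a1, a basement membrane collagen, was lower in ALDR (log2 fold change -0.64, SE 0.16, adjusted p = 0.0492). Mbp, the myelin basic protein gene, was the call among 8 nerve and Schwann cell markers (log2 fold change -0.47, adjusted p = 0.00821). The summed level of the 8 was 190.1 to 261 CPM in ALDR and 284 to 305 CPM in DRAL. Their median log2 fold change was -0.14, however, and 3 of the 8 had positive ones. Wfdc2, Cd163 and Col15a1 were lost without any 1 of the DRAL libraries and without ALDR replicate 2 or ALDR replicate 4, Cd163 and Col15a1 also without ALDR replicate 3, Col15a1 without ALDR replicate 5, and Mbp without DRAL replicate 1. Without ALDR replicate 1 there were 3 calls each among collagen and matrix genes and nerve markers. With Col15a1, Sparc was lower (log2 fold change -0.46) and Postn higher (0.57) in ALDR. With Mbp, S100b was lower (-1.15) and Cdh19 higher (0.62). Without ALDR replicate 5, 2 nerve markers were called, Cdh19 higher and Mbp lower. With all 8 libraries, none of 19 genes of amino acid stress and none of 19 of heat shock passed in edgeR or DESeq2, with 5 and 3 at an unadjusted p under 0.05. Atf5, a transcription factor of the stress response, was lower in ALDR without ALDR replicate 1 (log2 fold change -0.93, adjusted p = 0.0362). With the muscle and epithelium scores as terms of the fit, 21 genes were called, all among the 279. Without ALDR replicate 5 and DRAL replicate 1 together, 64 were called, of which 55 were among the 279. The part of the other cell types in the remaining differences was not tested.

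The unswitched diets gave a reference that shares no library with the comparison of the switches. DR against AL at 26 months called 1594 genes, 11.5% of those tested. The number was 687 to 1042 without AL replicate 1, AL replicate 3 or any DR library. Of the 279 genes called between the switches, 116 were called there too, 110 in the same direction. The 116 are 41.6% of the 279 and 7.28% of the 1594. The sign of the difference was the same for 238 of the 279 (85.3%) and for 62.2% of all genes. Among them, Per2 changed by a log2 fold change of 3.43 between DR and AL and 1.56 between ALDR and DRAL, Slc27a1 by 1.25 and 1.16, BC034090 by -1.73 and -1.63, and Nr1d1 by -1.59 and -1.30. Slc4a4 had 0.39 between DR and AL (adjusted p = 0.157) beside 1.29 between the switches, and the difference of these did not pass (adjusted p = 0.0657).

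**Figure D4:**
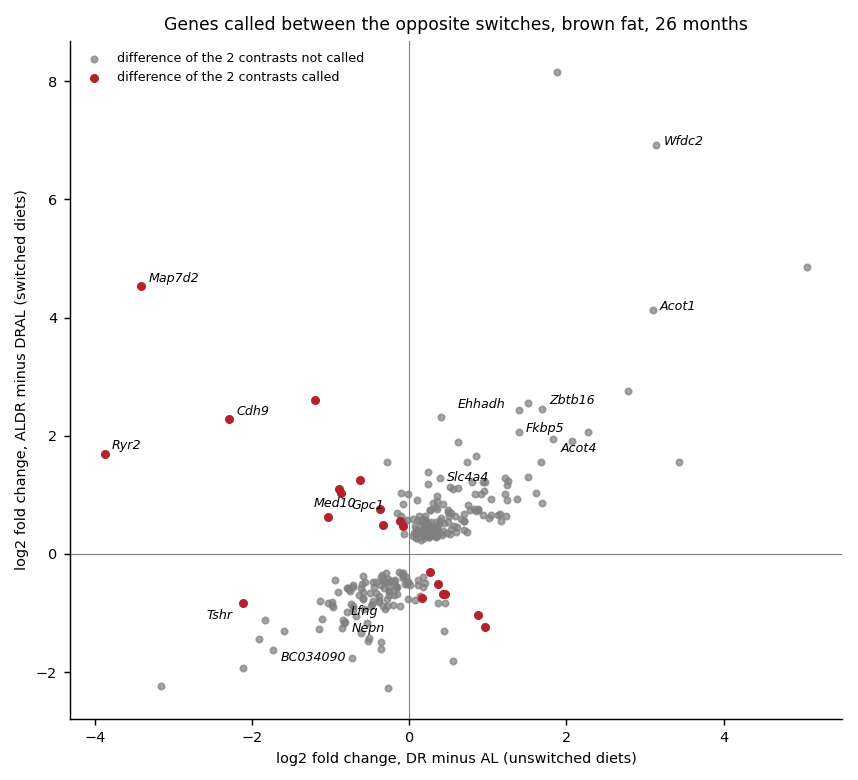
Log2 fold change of ALDR over DRAL (vertical axis) against that of DR over AL (horizontal axis) for the 279 genes called between the switches in BAT at 26 months. Red points are the 20 for which the difference of these fold changes passed an adjusted p of 0.05. Of the 279, 41 lie in the quadrants of opposite sign, among them Cdh9, Map7d2, Ryr2, Med10 and Gpc1 at the upper left.

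The size of the difference between the switches departed from that between the unswitched diets for 142 genes (1.03%), 61 more positive and 81 more negative in the switched pair. The 5 most positive by adjusted p were Cdh9, Ryr2, Map7d2, Med10 and Gpc1, and for each of them every BAT library of old mice fully fed before 24 months (ALDR and AL) lay above every library of mice restricted before then (DRAL and DR). That order follows from the choice of genes and is a description, since the difference tested equals the sum of ALDR and AL minus the sum of DRAL and DR. Cdh9 (chr15:16728756-16857094), a cadherin, was at 8.70, 7.95, 6.08, 7.16 and 4.88 CPM in ALDR, 4.87, 5.52 and 6.29 CPM in AL, 1.26, 1.36 and 1.62 CPM in DRAL and 1.43, 0.652 and 1.16 CPM in DR. The difference of the differences was 4.58 (SE 0.50, adjusted p = 0.000371). Map7d2 (chrX:159414572-159498757), a microtubule-associated protein gene, was at 2.47, 3.56, 8.17, 10.3 and 5.20 CPM in ALDR, 3.97, 1.84 and 2.88 CPM in AL, 0.337, 0.143 and 0.270 CPM in DRAL and 0.0717, 0.163 and 0.488 CPM in DR (7.95, SE 0.92, adjusted p = 0.000469, and 9.25 without DR replicate 3).

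Ryr2 (chr13:11553102-12106945), a calcium release channel of the endoplasmic reticulum, was at 13.7, 8.58, 6.78, 8.87 and 8.54 CPM in ALDR, 21.8, 12.6 and 16.5 CPM in AL, 1.77, 1.93 and 4.86 CPM in DRAL and 0.932, 0.652 and 1.65 CPM in DR (5.56, SE 0.62, adjusted p = 0.000371, and 6.19 without DRAL replicate 3). Ryr2 is also a heart and muscle gene, and the part of muscle RNA in its level was not tested. Med10, a subunit of the Mediator complex, was at 38.2, 26.0, 33.1, 32.0 and 24.2 CPM in ALDR, 34.1, 25.8 and 34.6 CPM in AL, 19.6, 19.9 and 19.9 CPM in DRAL and 15.1, 15.5 and 15.4 CPM in DR (adjusted p = 0.000702). Gpc1, a heparan sulfate proteoglycan of the cell surface, was at 37.8, 40.3, 48.0, 43.5 and 48.6 CPM, 39.97, 34.01 and 34.5 CPM, 17.04, 25.1 and 21.6 CPM and 18.9, 15.7 and 24.2 CPM in the same order of groups (adjusted p = 0.00372). Between ALDR and AL, which share the ALDR libraries with the comparison above, the log2 fold changes of Cdh9, Map7d2, Ryr2, Med10 and Gpc1 were 0.32, 1.04, -0.87, -0.04 and 0.27, with no adjusted p under 0.205, where 180 genes (1.3%) were called in all. Between DRAL and AL they were -1.97, -3.50, -2.55, -0.67 and -0.76, with no adjusted p under 0.181. No gene of the 13845 was called in that comparison in edgeR (0%, with 656 at an unadjusted p under 0.05), so that missing the threshold there says nothing particular about these 5. Between DRAL and DR they were 0.33, -0.08, 1.32, 0.37 and 0.10 (no adjusted p under 0.0966, with 1163 genes or 8.4% called), and between ALDR and DR 2.62, 4.46, 3.01, 1.00 and 1.14 (adjusted p from 0.000931 to 0.00302, with 722 genes or 5.21% called). At 5 months, ALDR against AL gave log2 fold changes of -0.05 for Cdh9 and 0.67 for Map7d2 (adjusted p = 0.953 and 0.611), and -2.17 for Ryr2 (adjusted p = 0.00474).

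**Figure D5:**
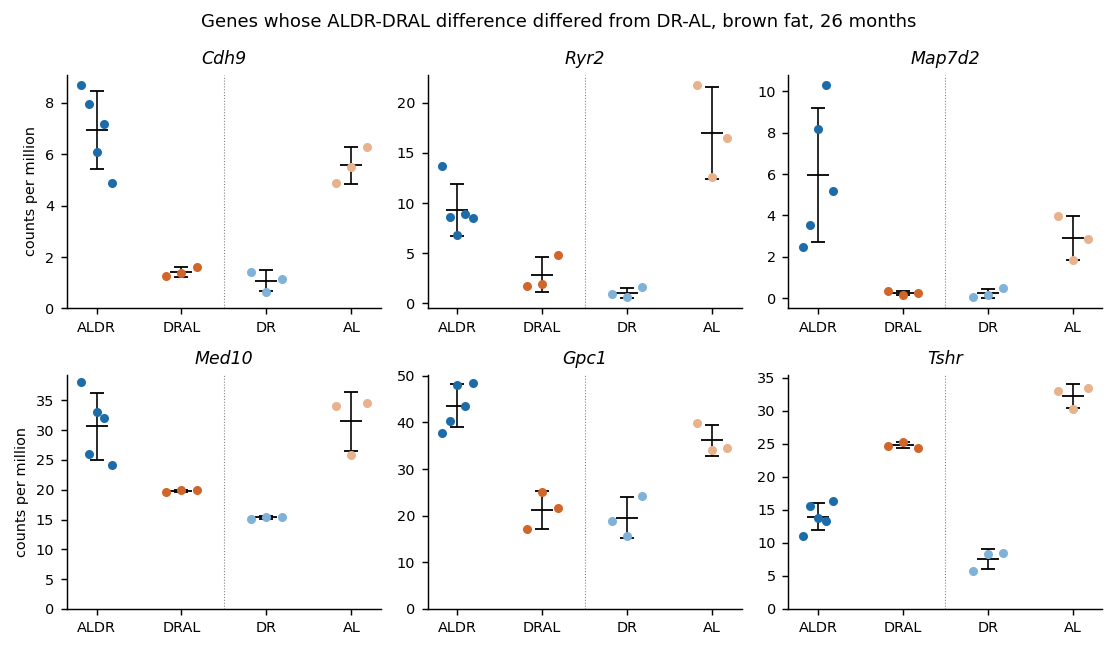
Levels of 6 genes in CPM (vertical axes) in each BAT library at 26 months, in ALDR (5 libraries), DRAL (3), DR (3) and AL (3); points are libraries, horizontal bars means and whiskers 1 SD. Cdh9 lies at 4.88 to 8.70 CPM in ALDR and 4.87 to 6.29 CPM in AL against 1.26 to 1.62 CPM in DRAL and 0.652 to 1.43 CPM in DR, while Tshr orders the groups AL, DRAL, ALDR, DR from high to low.

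The 5 most negative genes, Smagp, Grik5, Pck2, Tspan4 and Impdh1, were higher in every lifelong DR library than in any other old BAT library, again among genes chosen on this difference. Pck2, the mitochondrial phosphoenolpyruvate carboxykinase, was at 55.1, 37.3 and 39.7 CPM in DR against 11.01, 13.1 and 13.1 CPM in AL, and at 13.3, 19.9, 17.5, 17.1 and 19.8 CPM in ALDR against 14.3, 13.97 and 13.2 CPM in DRAL (difference -1.48, SE 0.22, adjusted p = 0.00416). Impdh1, an enzyme of guanine nucleotide synthesis, was at 1243, 888 and 1074 CPM in DR, 119, 219 and 202 CPM in AL, 189, 369.9, 301, 298 and 139 CPM in ALDR and 368, 405 and 233 CPM in DRAL (adjusted p = 0.00484). Tspan4, Grik5 and Smagp had log2 fold changes of 2.23, 1.36 and 1.09 between DR and AL and of 0.05, -0.23 and -0.27 between ALDR and DRAL.

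Tshr stood between these patterns. Its level ran from 5.74, 8.31 and 8.42 CPM in DR through 11.02 to 16.2 CPM in ALDR and 24.4 to 25.3 CPM in DRAL to 33.03, 30.2 and 33.5 CPM in AL, with no overlap between neighbours. The difference between the switches was smaller than that between the unswitched diets, at a log2 fold change of -0.83 against -2.12 (difference 1.29, SE 0.19, adjusted p = 0.00415). For Ucp1 and Dio2, which were lower in DR than in AL (-1.61, adjusted p = 0.005, and -2.66, adjusted p = 0.00794), the difference from the switched pair missed the threshold (1.67, SE 0.43, adjusted p = 0.0698, and 3.04, SE 0.75, adjusted p = 0.0574). The 142 calls of this difference became 17 to 85 without DRAL replicate 1 or 2, ALDR replicate 4, AL replicate 1 or 3 or any DR library, and 218 and 267 without ALDR replicate 5 and DRAL replicate 3. The 10 genes named as most positive and most negative were called in each of these fits.

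Restriction in youth gave a further reference. ALDR against AL at 5 months called 1997 genes (14.4%; 835 to 1190 without ALDR replicate 1 or 3 or AL replicate 1 or 2 of that age), and 167 of the 279 were among them, 164 in the same direction. The 167 are 59.9% of the 279 and 8.36% of the 1997. Ehhadh had a log2 fold change of 2.24 there, Slc27a1 1.90, Slc4a4 1.17, Tshr -1.38 and Alas1 -0.78, with adjusted p from 9.97e-06 to 0.00956. Igf1, which was 1.99-fold lower in ALDR than in DRAL, had -0.10 at 5 months (adjusted p = 0.792).

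The opposite switches called more genes in the other tissues, 1953 of 15828 genes in WAT (12.3%; 1102 to 1274 without ALDR replicate 2, 3 or 5 or DRAL replicate 3 or 4 of that tissue) and 3038 of 12761 in liver (23.8%). Group sizes and fits differed, with 22 libraries fitted in WAT, 6 in liver and 20 in BAT. The counts therefore do not compare the size of the response between tissues. Of the 279 BAT genes, 274 were tested in WAT and 102 called there (37.2% of those 274), 95 of the 102 in the same direction. In liver, 240 were tested and 106 called (44.2%), 95 of the 106 in the same direction. Per2 had log2 fold changes of 1.58 in WAT and 1.53 in liver beside 1.56 in BAT, and Acot4 1.99 and 1.38 beside 1.94, each with an adjusted p under 0.05. Slc27a1 rose in WAT (1.58) and had 0.06 in liver (adjusted p = 0.866). Alas1, lower in BAT, was higher in liver (1.25, SE 0.19, adjusted p = 0.00193) and had -0.12 in WAT (adjusted p = 0.665). Counting the comparisons of the unswitched diets, the young mice, WAT and liver, 25 of the 279 genes were called in the same direction in all 4, among them Per2, Acot1 and Acot4, and 55 in none.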

How the data were processed

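RNA was sequenced from BAT, WAT and liver. The authors deposited whole-number read counts per gene and library, with no normalization, in 1 table per tissue, and each column was matched to its sample by name. BAT titles write ADRL where the descriptions write ALDR, and the description was used. The submitters' processing notes name Trim Galore 0.3.7, TopHat2 2.0.14, DESeq2 and GRCm38 without their roles, and the counting program and annotation are not given in the sources used here. Per the labels' protocols, BAT libraries were stranded, single-end and polyA-enriched, although the same field also describes rRNA-depleted paired-end libraries, so the sources conflict. WAT and liver counts were normalized and tested separately from BAT.

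Genes with low counts were removed (filterByExpr), libraries scaled by TMM factors, and all 20 BAT libraries in 6 groups fitted in edgeR 4.0.16 (R 4.3.3, quasi-likelihood F test, Benjamini-Hochberg adjusted p under 0.05). CPM are counts scaled to 1000000 per library after TMM scaling, and SE is the absolute log2 fold change divided by the square root of F. Symbols were found for 25012 of 25913 gene identifiers, and gene positions are GENCODE M21 (GRCm38). Library totals were 12042148 to 19349912 counts in the groups compared. On simulated data for this comparison (13715 genes), the test recovered 19.4% of genes changed by 0.5 on the log2 scale, 62.7% at 1 and 81.8% at 2, with 2 false among 111 calls. The simulated counts were drawn independently for each gene and library, with no library that stood apart. Several real libraries did stand apart, so these shares need not hold for them. No pair of ALDR or DRAL libraries agreed within sampling noise (lowest chi-square per degree of freedom 10.8). Same-numbered ALDR and DRAL libraries had deviations correlated by 0.0406 to 0.0948, so the numbers were not taken as pairs.

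Named genes were the 10 higher and 10 lower with the smallest adjusted p among called genes with a fold change of at least 2, at least 1 CPM in the higher group, no overlap and an established symbol, every called list member, a set of 20 named whatever their result, and the 5 in each direction that departed most from DR against AL; other genes named were chosen after their values were seen. Some genes that the rule picks are not reported here. The members and lists were chosen with earlier results of these data known. Alternatives were DESeq2 1.42.0, RLE factors, no filter, the 8 libraries alone, a replicate block, marker scores as covariates and each library left out.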

Additional observations from a re-analysis of the deposited data

Results flagged for a closer look

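Among the 5 ALDR libraries, 1 library lay far from the rest for 7 of 87 named genes and 3 of 9 marker lists, judged by its gap to the next library over the whole range (above 0.71). Chance gives about 1 such group in 20. ALDR replicate 5 was high for Acot1 (196.7 CPM), the sodium potassium chloride cotransporter gene Slc12a2 (136.7 CPM), the lipocalin gene Lcn2 (130.4 CPM) and the epithelium markers (450.5 CPM summed). ALDR replicate 3 was high for Irs2 (121.3 CPM) and the muscle markers (8184 CPM summed). ALDR replicate 1 was high for Acly (5630 CPM), the fatty acid elongase gene Elovl6 (1800 CPM), the clock output gene Dbp (68.98 CPM) and the nerve and Schwann cell markers (261.3 CPM summed).

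The difference between the switches departed from that between the unswitched diets, by a test of the difference itself, for 12 named genes. On the log2 scale it was more positive for Map7d2 (7.953), Ryr2 (5.558), Cdh9 (4.583), Gpc1 (1.903), Med10 (1.669), Tshr (1.289) and Abhd5 (0.6629). It was more negative for Impdh1 (-2.942), Tspan4 (-2.181), Grik5 (-1.594), Pck2 (-1.482) and Smagp (-1.359).

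In BAT and liver, 4 named genes separated ALDR from DRAL without overlap in opposite directions, and the difference between the tissues was not tested. Alas1 had a log2 fold change of -1.25 in BAT and 1.247 in liver, Car5b, a mitochondrial carbonic anhydrase gene, 0.92 and -1.034, Acss3 0.92 and -0.7928, and Abhd5 0.55 and -0.4544.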

How the results depend on the processing

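The 279 calls between ALDR and DRAL (161 higher, 118 lower) became 577 (351 and 226) with DESeq2, 6 (3 and 3) when the groups compared were fitted alone, 21 (12 and 9) with muscle and epithelium marker scores, and 64 (33 and 31) without ALDR replicate 5 and DRAL replicate 1, an alternative chosen after seeing the data. RLE factors gave 273 and no filter 224. Leaving out 1 library gave 35 to 737 calls, 18 to 359 higher and 13 to 378 lower. With the replicate block, 124 genes were called (88 and 36, so that 71.0% were higher), of which 104 were among the 279; the replicate numbers do not pair the mice. All 279 kept their direction in each setting, which is no independent support since they were called on the same libraries. The cause of the lost calls was not tested. The 142 genes that departed from DR against AL became 416 with DESeq2, 24 with the 4 old groups alone, 68 with the replicate block, 72 with marker scores and 17 to 267 with 1 library left out. Leaving out 1 library gave 687 to 1655 calls for DR against AL, 835 to 1676 for the mice at 5 months, 1102 to 2848 in WAT and 2050 to 2526 in liver. Levels of a few counts, as for Map7d2 and Acot3 in DRAL, are limited by depth.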
